A study of Populus tremula x Populus alba with 3 samples.

Results

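Potri.001G348900 is the poplar gene that the authors' deposited tables pair with the Arabidopsis locus AT3G01500, carbonic anhydrase 1, also named SABP3. It is 1 gene of the 524 listed with a hypermethylated region in the transcribed part and a changed expression in knockdowns of PtaDML10, and of 577 genes over 6 such tables. It was chosen by its measured expression logFC and logCPM and by the exon segments listed beside it, so these values are given as a description and carry no test. The annotation is the authors' match to Arabidopsis, with no protein sequence used here to check it.

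The plants were Populus tremula x Populus alba, clone 717-1B4, a hybrid poplar used for genetic transformation, as wild type (WT) and as the RNA interference lines KD2 and KD5. RNA interference lowers a transcript through small RNAs, here directed at PtaDML10, a DEMETER-like DNA glycosylase, the class of enzyme that excises methylated cytosine. All 3 genotypes went through 4 weeks of 16 h days at 21 °C, 12 weeks of 8 h days at 19 °C and a cold period of 4 weeks at 4 °C under short days, and buds were taken at the closed stage. Each genotype was 1 whole genome bisulfite library, labelled as apices, from 15 apical buds of 15 plants, so no difference has a replicate check and the 2 knockdown lines share 1 WT library. The promoter driving the RNA interference construct is not given in the sources used here. Level and difference of expression come as 1 value per gene for both lines together, from libraries not analysed here. PtaDML10 itself was not among the genes analysed, so the labels could not be checked against it.

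Carbonic anhydrases are zinc enzymes that interconvert carbon dioxide and bicarbonate. The Arabidopsis enzyme CA1 is of the beta class and lies in the chloroplast, where it is abundant in leaf mesophyll, and it also binds salicylic acid, hence the name SABP3. Together with a related beta enzyme it takes part in the closing of Arabidopsis stomata at high carbon dioxide. Plant DNA is methylated in the contexts CG, CHG and CHH, with H standing for any base but G, and separate methyltransferases maintain each context. Methylation in CG alone is common in plant gene bodies, whereas methylation in all contexts is typical of silenced repeats.

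The gene had the most negative expression value of its tables by a wide margin. Its logFC in the authors' deposited tables was -7.83, with a logCPM, the mean expression level on a log scale, of 1.27. Read as base 2, which the headers do not state, the values of the authors' deposited tables would be a 228-fold ratio between the groups at a mean level of 2.42 CPM. The authors' deposited tables give an expression p of 2.59e-13 and an FDR of 3.21e-10 for the gene, the same in all 3 contexts since expression was listed once per gene. The direction of the logFC is not stated beyond the name of the comparison, the knockdowns against WT. Read in that order, a negative value would be a lower transcript level in the knockdowns, but the order could not be checked from these values. No count per library was used here, so it is also not known whether 1 of the groups was at 0, in which case the size of the logFC would depend on how the fit treats a zero.

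**Figure D1:**
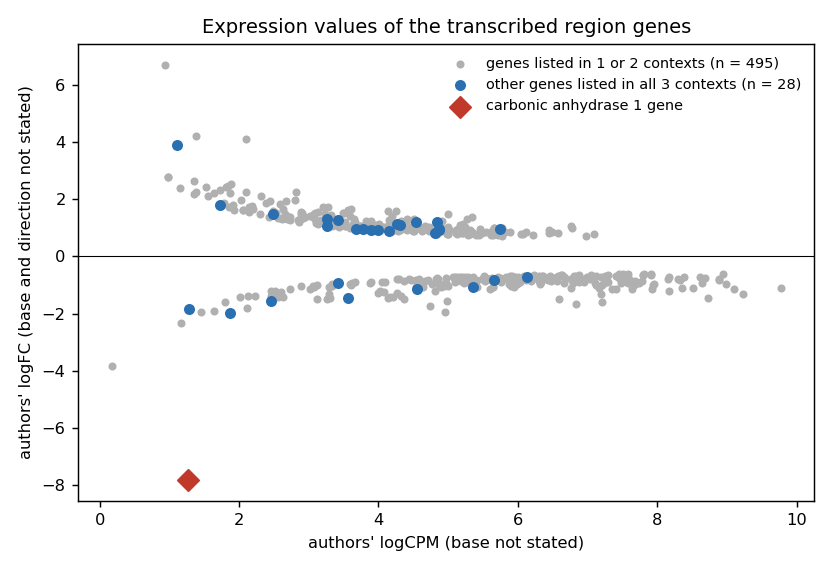
Expression logFC (vertical axis) against logCPM (horizontal axis) for the 524 transcribed region genes, as the authors deposited them, with no error bars since 1 value is given per gene. The carbonic anhydrase 1 gene (red diamond) lies at -7.83 and 1.27, and the next most negative gene at -3.84.

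A negative logFC was listed for 254 of the 524 genes, 48.5%, and a logFC of -1 or below for 78, 14.9%. Only 3 genes had a logFC of -2 or below, while 21 had 2 or above. After the carbonic anhydrase gene the authors' deposited tables list Potri.007G034000 at -3.84, which has no description, and Potri.019G049000, of the haloacid dehalogenase-like hydrolases, at -2.34. Potri.007G137000 at -1.99 and photosystem II subunit R (PSBR, Potri.011G142200) at -1.96 complete the 5 lowest in the authors' deposited tables. The distance from the carbonic anhydrase gene to the next gene was 3.99 on the deposited log scale, and the following 5 genes together spanned 1.91. By size regardless of sign it also ranked first, 1.12 above Potri.017G018300, whose logFC of 6.72 was the most positive in the authors' deposited tables.

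Its level was among the lowest listed. Only 7 of the 524 genes had a lower logCPM, and the median was 4.81 in the authors' deposited tables. Of those 7 genes, 5 had a positive and 2 a negative logFC. Among the 42 genes within 1 unit of its logCPM, 11 including itself had a negative logFC (26.2%). The other 10 lay between -2.34 and -1.38 in the authors' deposited tables, with a median of -1.82. In logCPM its nearest neighbour was Potri.012G083300, the poplar match of the auxin synthesis enzyme TAR2, whose logCPM was 1.29 and logFC -1.84 in the authors' deposited tables. The next nearest in level were Potri.006G168600 (logFC 2.20), a BED zinc finger gene (Potri.017G021800, 2.65), the hydrolase Potri.019G049000 and an NB-ARC disease resistance gene (Potri.001G428100, 2.25), per the authors' deposited tables. These 5 genes had logFC values of either sign, none above 2.65 in size in the authors' deposited tables. Over the 41 other genes within 1 logCPM the highest logFC was 6.72, that of Potri.017G018300, in the authors' deposited tables.

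The FDR of the gene was small for so low a level. Of the 524 genes, 4 had a smaller FDR, namely PSBR, the ribosomal protein gene Potri.010G251500, Potri.014G079800 and the chlorophyll a/b binding protein gene CAB1 (Potri.005G239200). In the authors' deposited tables these 4 genes had a logCPM of 4.96 or more. Within 1 logCPM of the carbonic anhydrase gene, the next smallest FDR in the authors' deposited tables was 2.78e-06, for the NB-ARC gene Potri.001G433700. Among the 20 genes of smallest FDR the median logCPM was 7.20 in the authors' deposited tables, 18 had a negative logFC and 2 had a logCPM below 3. All listed genes have an FDR below 0.05, so these ranks are among genes already selected for expression. The FDR also belongs to the expression comparison whose logFC and logCPM chose the gene, so its small value is not a separate trait.

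**Figure D2:**
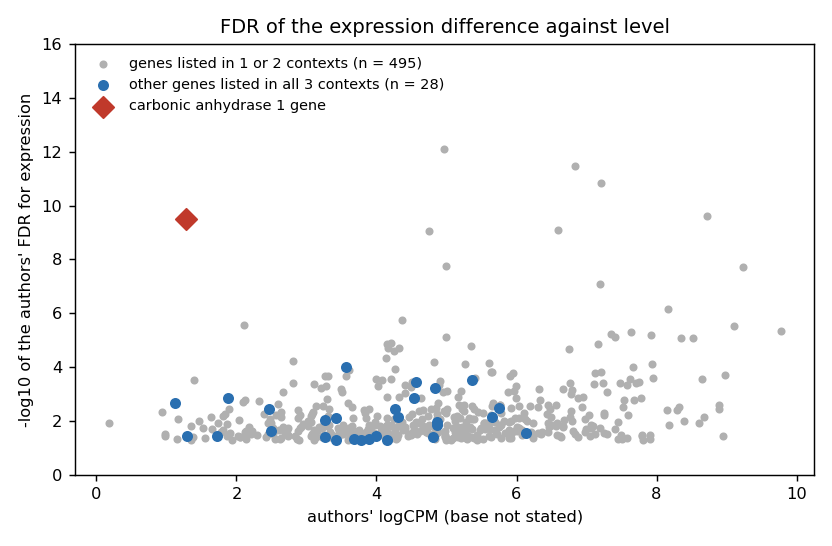
The negative log10 of the authors' FDR for expression (vertical axis) against logCPM (horizontal axis) for the 524 transcribed region genes, 1 point per gene. The carbonic anhydrase 1 gene (red diamond, FDR 3.21e-10) stands alone at the upper left, where the other genes within 1 logCPM have an FDR of 2.78e-06 or larger.

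The gene lies on the minus strand of chromosome 1 between 35500037 and 35503657, a span of 3621 bases with introns, in coordinates whose build is not named beyond a Phytozome tag. The median span of the 505 listed genes with a single set of coordinates was 4248 bases, and 200 of them were shorter. It was listed in the CG, the CHG and the CHH table, as were 29 of the 524 genes (5.53%). No promoter table listed it. The transcribed region tables give neither the coordinates of the methylated regions nor a methylation level, so segments listed for a gene were taken to be the ones touched by a methylated region. How strongly the gene was methylated in any genotype cannot be given.

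The coding segments listed in CG and those listed in CHG and CHH were different ones, while the 3' UTR segments overlapped. In CG the coding segments ran from 35501013 to 35501542, between 2115 and 2644 bases downstream of the gene's 5' end. They form 3 blocks of 118, 86 and 63 bases, at 35501013 to 35501130, 35501224 to 35501309 and 35501480 to 35501542. In CHG and in CHH the coding segments fell between 35500457 and 35500495, from 3162 to 3200 bases downstream of the 5' end. Pooled over gene models these amount to 37 coding bases, a block of 33 and a block of 4, against 267 in CG. Each of 4 models had 1 coding segment there, so the block of 33 and the block of 4 belong to different models. Starts and stops are listed apart, so whether a segment also covers the whole stretch cannot be told. Between the CG coding segments and those of the other contexts lay 517 bases. The 3' UTR segments ran from 35500037 to 35501479 in CG and from 35500037 to 35501012 in CHG and CHH, a span that includes the CHG and CHH coding blocks.

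In gene model 1, CG segments were coding segments 6, 7 and 8, counted from the 5' end. CHG and CHH segments were coding segment 10 and parts 1 and 2 of its 3' UTR. Coding segments 1 to 5 and 9 of that model were listed in no context. No 5' UTR segment was listed for the gene in any context, while 14.7% of CG genes, 12.9% of CHG genes and 15.4% of CHH genes had one. Over the whole gene, all listed segments thus lay in the 3' part, none before 58.4% of its length from the 5' end. The listed models had 4 distinct 5' ends, and this percentage counts from the most upstream one. In models 3 and 16 the CG coding segments were numbers 2, 3 and 4. The place of the segments within models that start further downstream was not measured.

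The number of segments reflects many gene models that share a few exons. The authors' deposited tables listed 16 models of the gene, the most of any listed gene, where the median was 2 and the next largest number 13. Models listed in no context are not counted. With 44 coding segments the gene ranked first of 388 in CG (median 1), yet these 44 have 7 distinct start and 3 distinct stop positions. Of the 16 models, 14 had 3 coding segments listed in CG and the other 2 had 1. Counted as distinct positions, taking the smaller of the numbers of starts and stops, its 3 segments were exceeded by 3 of 372 genes with a single set of coordinates and matched by 18 others. In CHG and CHH, 4 models had a coding segment listed and 15 had a 3' UTR segment. The 16 segments of the 3' UTR were the most of any gene in either table, and they had 2 distinct starts and 8 distinct stops. Those 8 positions, 35500309 to 35501012, are the 5' edges of 3' UTR segments, some of them later parts of a 3' UTR that is split by introns.

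Only 1 segment was common to CG and the other contexts. It is the 3' UTR of model 7, from 35500037 to 35501012, which directly adjoins the CG coding block. It made up 2.08% of the 48 exon segments in CG and 5.0% of the 20 in CHG. The lists for CHG and CHH were identical, 20 of 20 segments. Model 14, whose 3' end on the minus strand is at 35501198, appeared in CG and in neither of the other tables. The segments listed in CHG and CHH, at 35500037 to 35501012, all lie beyond that end. Over all genes with exon segments in both tables, 43 of 65 shared no segment between CG and CHG (66.2%), 19 had identical lists (29.2%) and 3, this gene among them, shared some. Between CG and CHH, 24 of 45 genes shared no segment (53.3%) and 20 had identical lists (44.4%). Between CHG and CHH, 29 of 36 genes had identical lists (80.6%).

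In CG, CHG and CHH respectively, coding sequence was listed for 68.8%, 60.7% and 61.8% of genes and 3' UTR for 28.6%, 28.7% and 30.9%. Coding sequence together with 3' UTR, without 5' UTR, was listed for 65 of 388 CG genes (16.8%), 29 of 178 CHG genes (16.3%) and 21 of 123 CHH genes (17.1%). Of the 29 genes in all 3 contexts, the carbonic anhydrase gene was the 1 gene that showed this pair in each of them. Its pair need not mean separate parts, since bases 35501025 to 35501130 were listed in CG both as coding and as 3' UTR. Of its 16 models, 3 had a 3' UTR segment in CG, and 4 had a coding segment in CHG and in CHH. Pooled over contexts, 8 of the 29 had these kinds of segment (27.6%), the carbonic anhydrase gene included, against 104 of the 524 listed genes (19.8%). Of these 8 genes, 3 had a negative and 5 a positive logFC. Per the authors' deposited tables these included TAR2, the fatty acid elongase KCS19 (Potri.013G119800, logFC 0.94) and the zinc finger gene Potri.006G257400 (1.15). Potri.007G040000 (1.20), an iron-dependent oxygenase gene (Potri.009G091000, 1.32) and CSLD3, of the cellulose synthase-like enzymes (Potri.001G136200, 1.79) were also among them in the authors' deposited tables. A gene with many models has more segments that a region can touch, and the median number of listed models among the 29 was 2.

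The genes in all 3 contexts did not share its expression value. Of the 29, 10 had a negative logFC (34.5%) and 19 a positive one. Without the carbonic anhydrase gene they ranged from -1.99 to 3.91 in the authors' deposited tables, with a median of 0.95. Their median logCPM was 3.95 in the authors' deposited tables, and Potri.002G040800, at 1.11, was the 1 gene below the carbonic anhydrase gene. That gene carries the most positive logFC of the 29, 3.91 in the authors' deposited tables, so the lowest levels hold both extremes.

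**Figure D3:**
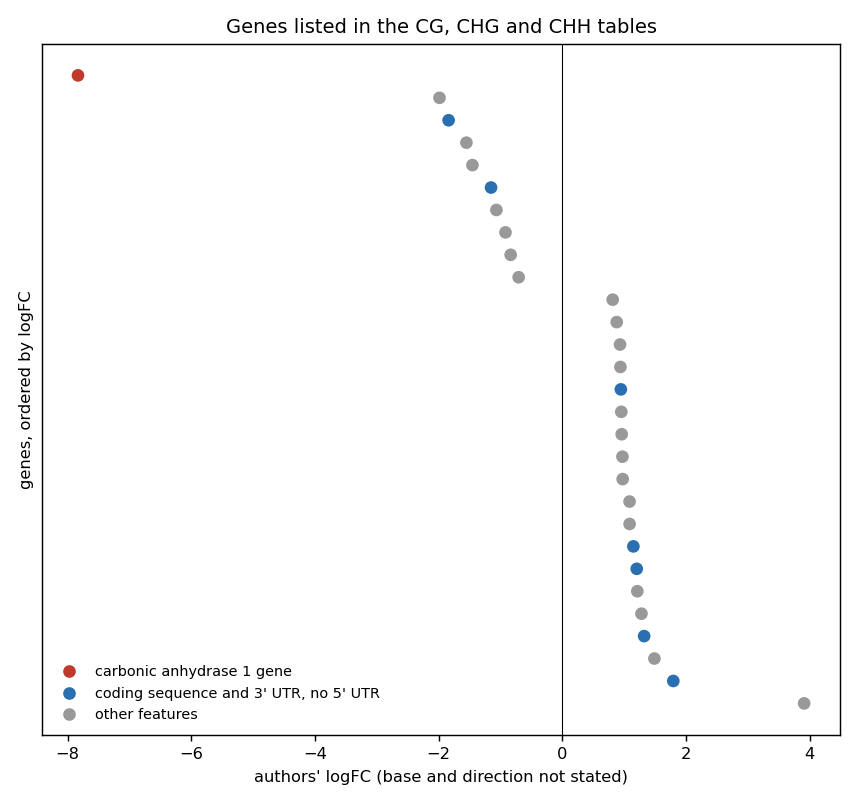
Authors' logFC (horizontal axis) of the 29 genes listed in CG, CHG and CHH, 1 point per gene, ordered by value; blue marks genes with coding sequence and 3' UTR but no 5' UTR over the 3 contexts. The carbonic anhydrase 1 gene (red) lies at -7.83 and the other 28 between -1.99 and 3.91.

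Listed genes near it on the chromosome did not share its value either. The nearest, 197 kb away, was Potri.001G350500, a heavy metal transport and detoxification family gene listed in CG, at -0.93 in the authors' deposited tables. On the other side, 297 kb away, lay the ribosomal protein gene RPL12-A (Potri.001G346100), listed in CHG and CHH, at -1.13 in the authors' deposited tables. Next on that side came LOB (Potri.001G345700, 1.57), named after lateral organ boundaries, at 364 kb, and the COP9 signalosome gene CSN3 (Potri.001G334200, 0.86) at 1.77 Mb, per the authors' deposited tables. On the first side followed a RimM family gene of ribosomal RNA processing (Potri.001G353800, 0.93) at 639 kb and the polyadenylation factor CPSF30 (Potri.001G357800, -0.75) at 1.19 Mb, per the authors' deposited tables. None of these 6 genes was in all 3 contexts. Of the 70 listed genes on chromosome 1 with a single set of coordinates, 36 had a negative logFC (51.4%).

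No other carbonic anhydrase gene was listed. Of 19 Arabidopsis loci of the alpha, beta and gamma classes, AT3G01500 was the 1 with a listed poplar gene. Carbonic anhydrases form a gene family, and how reads were assigned between similar copies is not given in the sources used here, so the level of this copy is uncertain to that extent. Of 16 loci for carbon dioxide response and stomata, none had a listed gene. As the tables hold only genes past thresholds for both methylation and expression, absence from them does not show that a gene was unchanged.

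Listed genes of carbon fixation and photorespiration had the same sign but small values. From 40 loci, 5 poplar genes were listed, all 5 with a negative logFC, against 51.0% of the 577 genes in all tables. In the authors' deposited tables the values were -1.30 for the chloroplast aldolase FBA2 (Potri.004G162400), listed for its promoter, and -0.96 for a glycolate oxidase-type gene (Potri.001G394400). The genes for the T-protein (Potri.011G006800) and the P-protein (Potri.006G229300) had -0.74 and -0.71 in the authors' deposited tables. Both are parts of the glycine cleavage system, which releases carbon dioxide in photorespiration. An aldolase gene (Potri.008G125900) had -0.71 in the authors' deposited tables. Their median was -0.74. The median over all 577 genes, -0.63, falls among the smallest negative values listed, so it is not a typical value to compare with. These 5 genes had a logCPM between 5.87 and 7.20 in the authors' deposited tables, far above the 1.27 of the carbonic anhydrase gene.

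Genes named for photosystems, light harvesting or chlorophyll were negative as well, 7 of 7, against 51.0% of the 577 genes in all tables. The median of the 7 was -1.43. Besides PSBR, the authors' deposited tables give -1.52 for the gene of a small photosystem II protein (Potri.009G052500), listed for its promoter. They also give -1.46 for CAB1 and -1.43 for HCF153 (Potri.001G022500), needed in Arabidopsis for the cytochrome b6f complex. LHCB2 (Potri.014G165100) had -0.88, the other PSBR copy (Potri.011G142300, listed for its promoter) -0.77 and PIFI (Potri.001G204300) -0.75 in the authors' deposited tables. Genes were taken by words in their descriptions. Chloroplast genes outside the list had values of either sign. Examples are STN7 (Potri.010G129500, 2.47), TOC64-III (Potri.015G038600, 0.79) and VTE1 (Potri.006G240100, -0.81) in the authors' deposited tables. This list was chosen with earlier results of these data known. Its genes had a logCPM between 3.94 and 8.72 in the authors' deposited tables. Above the median logCPM, 186 of 262 genes of the transcribed region tables had a negative value (71%), and below it 68 of 262 (26%), and the part of level in the sign of either list was not tested. The carbonic anhydrase gene shared the sign of the genes of either list, at a level below each of them. Its logFC was 5.87 lower than that of PSBR, the most negative of them.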

How the data were processed

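Genomic DNA of apical buds was bisulfite sequenced, 1 library per genotype. Bismark and methylKit were used, per the submitters' processing notes; no source used here states versions, a coverage minimum, filters or a build. The authors deposited 6 tables of their own comparison of KD2 and KD5 with WT, with no value per library, and sequencing depth is unknown. Expression logFC and logCPM were deposited by the authors and read as log2 values, although the base is not stated, nor the direction beyond the name of the comparison. The p-value and FDR of expression are the authors' deposited values. Methylation differences in the deposited promoter tables were not used.

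Features were counted by their own identifiers, leaving out those of overlapping genes. Where starts and stops are listed apart, each start was paired with the smallest listed stop after it. For the 3' UTR of the gene in CHG and CHH this left stops unpaired, so only the whole span is given. Ranks count genes with a smaller value, each gene once. No test was run, because the gene was chosen from these values. The gene and lists were chosen with earlier results of these data known. Named genes were the 5 nearest in logCPM, the 5 of most negative logFC, the 3 nearest listed on each side on chromosome 1, those in all 3 contexts with the same kinds of segment, and up to 6 members per list; 1 gene that this rule picks is not reported here. Others are named for their rank in FDR, logFC or logCPM, or as chloroplast genes outside the lists, after their values were seen. Parsing, pairing and ranking were tested on simulated data. Python 3.11.15 and pandas 2.3.3 were used.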

Additional observations from a re-analysis of the deposited data

How the results depend on the processing

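The logFC of the carbonic anhydrase gene ranked first among the 524 transcribed region genes, among the 577 genes of all tables and by absolute value. The gene was also first among the 29 genes in all 3 contexts, the 42 genes within 1 logCPM and the 165 genes with an FDR below 0.005. That place was fixed in advance, since these subsets are parts of the 524 and contain the gene. Its logCPM was the 8th lowest of 524, 11th of 577, 2nd of the 29 and 3rd of the 165 (ranks 8, 11, 2 and 3). Its FDR rank of 5 was the same over all tables and became 1 within 1 logCPM. Genes in all 3 contexts numbered 29, 11 with an FDR below 0.005 and 12 among the 214 genes with 1 listed gene model. Genes with coding sequence and 3' UTR but no 5' UTR numbered 104 pooled over contexts, 32 with 1 listed gene model and 1 when each of the 3 contexts was required. These subsets hold fewer genes by construction. No paired analysis was possible because each genotype was 1 library and the tables used hold no value per library. For the same reason no replicate could be left out, and unknown depth leaves the precision of every value open to that extent.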
